A study of Mus musculus with 4 samples.

Results

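Cytokine genes that act on lymphoid and myeloid blood cells were followed in a pair of mouse stromal cell lines, OP9M2 and BFC012. They were the 7 genes Il7, Tslp, Il15, Csf1, Il34, Csf2 and Csf3, out of 18193 genes measured, and they were read by the 11 probe sets that name one of them alone, out of 45037 probe sets tested. The genes were chosen by what their products do, with earlier results of these data known. OP9M2, labelled as mesenchymal stem cells, is 1 clone grown out of OP9 stroma, and it sustains human hematopoietic progenitors in co-culture. BFC012 is a fibroblast line from mouse fetal liver that does not sustain them. Each line was measured on 2 Affymetrix mouse expression arrays, labelled as biological replicates, each from 1 culture plate. Both lines were given 2000 rad of irradiation, seeded at a density of 25000 per square centimetre and harvested 48 hours later. OP9M2 grew in 20% and BFC012 in 10% fetal bovine serum, so line and serum cannot be told apart. OP9 cells descend from osteopetrotic mice, whose Csf1 gene carries a mutation that leaves no working protein.

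IL-7 and TSLP both signal through the alpha chain of the IL-7 receptor, IL-7 together with the common gamma chain and TSLP together with Crlf2. IL-7 is required for early B cell and T cell growth in the mouse and is made by marrow stroma. IL-15 is bound by Il15ra on the cell that makes it and is handed to natural killer cells and memory T cells. M-CSF (Csf1) and IL-34 share a receptor, Csf1r, which macrophages and their precursors need, while GM-CSF (Csf2) and G-CSF (Csf3) drive granulocyte and macrophage output and are made by stroma mainly after an inflammatory stimulus.

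All values are log2 values, the natural logarithm of the deposited intensity, and a difference is OP9M2 minus BFC012 ± SE with 2 arrays in each line. Differences were tested with limma over all 45037 probe sets, and a probe set was called at a Benjamini-Hochberg adjusted p under 0.05 and at least 1 log2 unit, which is 2-fold. The level taken as background was 6.09 log2 units, the 95th percentile of 81 probe sets of odorant-type receptor genes. Where no array of the lower line was above background, a fold is given as at least the mean of the higher line over background. Such a fold rests on the mean and is not the smallest fold between single arrays. An array of the higher line can itself be below background. Levels of different probe sets are not comparable with each other. The OP9M2 arrays were further apart than the BFC012 arrays, with 6.31% against 0.646% of probe sets at least 1 log2 unit apart. OP9M2 replicate 2 also stood apart in its 12 poly-A control probe sets, whose median was 3.31 there and 6.24 to 7.31 on the other arrays. When BFC012 replicate 1 or BFC012 replicate 2 was left out, the residual spread was that of the OP9M2 pair, and limma then called 0 of all 45037 probe sets, with 4568 and 4517 at an unadjusted p under 0.05. No call in the text was kept in those fits. When an OP9M2 array was left out, the remaining one stood alone and was assumed to vary like the closer BFC012 pair, so a call made only then does not cover the spread between the OP9M2 replicates.

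Il7 and Il15 were called higher in OP9M2, and Tslp, Csf1, Il34, Csf2 and Csf3 were not called. That is 2 of 7 genes, where 5.91% of all genes were called (2.36% higher and 3.56% lower), and 3 of 11 probe sets, where 4.46% of all probe sets were called (1.8% higher and 2.66% lower). No member was called lower. The median difference of the 7 genes was 0.28, beside 0.03 over all genes. The arrays of the lines did not overlap in 4 of the 7 genes, beside 53.2% of all genes, and in 7 of the 11 probe sets, beside 49.5% of all probe sets. Il7 and Il15 were above background on both OP9M2 arrays and on neither BFC012 array, as were 1.78% of all genes. Csf1 was the 1 member above background on every array, with all 4 of its probe sets, beside 58.4% of all genes and 44.7% of all probe sets.

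**Figure D1:**
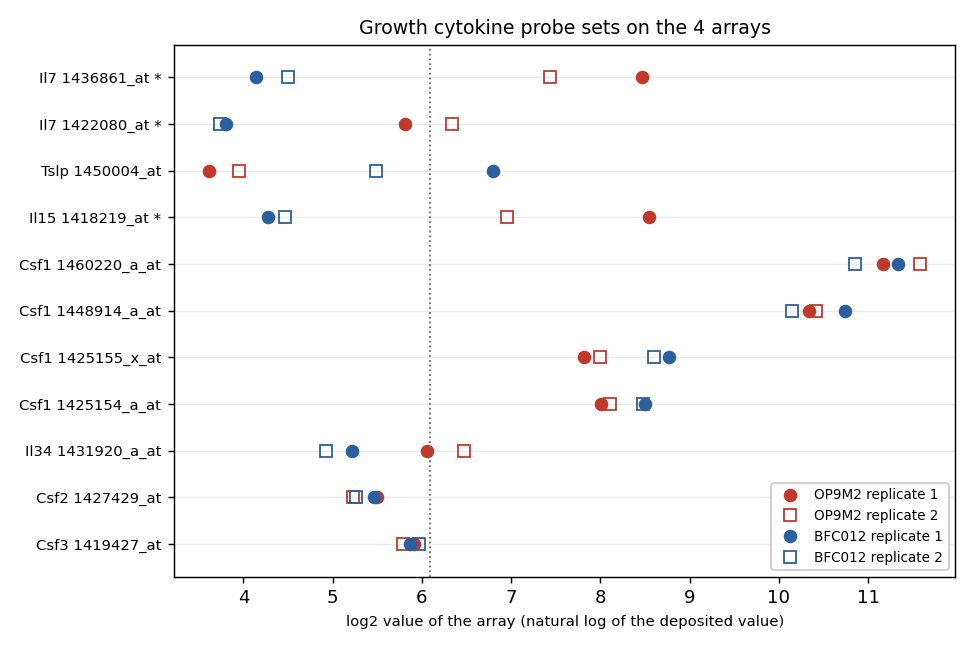
Log2 value (horizontal axis) of the 11 growth cytokine probe sets (rows) on each of the 4 arrays; red is OP9M2, blue BFC012, filled circles replicate 1, open squares replicate 2, with the background level of 6.09 dotted, and an asterisk marks a called probe set. Il7 and Il15 lie to the right in OP9M2 and below background in BFC012, Tslp lies to the right in BFC012, and Csf2 and Csf3 lie left of the line on all arrays.

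Il7 (chromosome 3, 7572028 to 7613760, GRCm38.p6) was measured by 2 probe sets, and both were higher in OP9M2. The brighter one (1436861_at) read 8.47 and 7.43 in OP9M2 and 4.15 and 4.50 in BFC012. Both OP9M2 arrays were above background and neither BFC012 array was, so the groups lay apart by far more than the replicates of either line. The difference was 3.63 ± 0.39 (limma adjusted p = 0.0178), at least 3.62-fold. The dimmer one (1422080_at) read 5.81 and 6.34 in OP9M2 against 3.81 and 3.74 in BFC012, a difference of 2.31 ± 0.22 (adjusted p = 0.0132). There OP9M2 replicate 2 alone was above background and the OP9M2 mean of 6.08 was just below it, so no fold is given. The probe sets put the OP9M2 replicates in opposite order, replicate 1 being 1.03 higher in the brighter and 0.53 lower in the dimmer. Without BFC012 replicate 1 and without BFC012 replicate 2 the brighter probe set differed by 3.45 (adjusted p = 0.257) and 3.81 (adjusted p = 0.238).

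Tslp (chromosome 18, 32815383 to 32819799), the epithelial cytokine that shares the IL-7 receptor alpha chain, lay in the opposite direction but was not called. Its probe set (1450004_at) read 3.62 and 3.95 in OP9M2 and 6.79 and 5.48 in BFC012. Both BFC012 arrays lay above both OP9M2 arrays, yet BFC012 replicate 1 was the one array above background and the BFC012 replicates were 1.31 apart. The difference was -2.35 ± 0.47 (limma adjusted p = 0.0777), at least 1.03-fold lower in OP9M2. Of 8 epithelial markers, 2 were called lower in OP9M2 and 6 were not called, and 5 were above background on each BFC012 array and 2 and 3 on the OP9M2 arrays. Their log2 values, those below background included, summed to 54.5 to 57.4 in BFC012 and 47.1 to 49.6 in OP9M2. Such a sum does not measure the share of epithelial cells. The 2 called were the adhesion molecule Cdh1 (-4.56) and the keratin Krt14 (-2.05), another probe set of which was not called (-0.05). Of the markers not called, Krt19 (-1.40) and Krt8 (-0.59) were also lower. Krt18 (-0.04) and Cldn4 (-0.01) barely differed, and Epcam (0.94) and Krt5 (0.14) lay the other way. The part of such cells in the Tslp value was not tested.

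Il15 (chromosome 8, 82331624 to 82403252) had 1 probe set (1418219_at), with 8.55 and 6.95 in OP9M2 and 4.28 and 4.46 in BFC012. Both OP9M2 arrays were above background and neither BFC012 array was, but the OP9M2 arrays were 1.60 apart. The difference was 3.38 ± 0.55 (at least 3.15-fold), and its limma adjusted p of 0.0498 was at the edge of the threshold. It was lost with the arrays centred on their medians (adjusted p = 0.0523) or with robust eBayes (adjusted p = 0.0521), and without BFC012 replicate 1 or 2 (adjusted p = 0.405 and 0.393). In bulk RNA such as this, fewer cells that make a transcript and less transcript in each cell cannot be told apart.

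Csf1 (chromosome 3, 107741048 to 107760469) gave clear signal in both lines on all 4 of its probe sets, and none was called. The brightest (1460220_a_at) read 11.17 and 11.58 in OP9M2 and 11.34 and 10.86 in BFC012, so the arrays of the lines were interleaved (0.28 ± 0.25, limma adjusted p = 0.642, 95% interval -0.38 to 0.93). The next (1448914_a_at) differed by -0.06 ± 0.24. The remaining pair was lower on both OP9M2 arrays than on both BFC012 arrays. One of that pair (1425155_x_at) read 7.81 and 8.00 against 8.77 and 8.60 (-0.78 ± 0.15, adjusted p = 0.0752), and the other (1425154_a_at) read 8.00 and 8.11 against 8.50 and 8.48 (-0.43 ± 0.13, adjusted p = 0.183). The mean of the bright pair minus that of the dim pair was 2.85 and 2.95 in OP9M2 and 2.40 and 1.97 in BFC012, so the pairs changed unequally between the lines, by 0.71, and this difference was not tested. RefSeq lists 3 curated Csf1 transcripts, and which of them each probe set reads was not settled here. With all 4 probe sets averaged the difference was -0.25, the other sign. These probe sets read RNA and say nothing of the protein.

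Il34 (chromosome 8, 110741829 to 110805949), the other ligand of Csf1r, lay near background (1431920_a_at). It read 6.06 and 6.47 in OP9M2 and 5.22 and 4.93 in BFC012. Both OP9M2 arrays were above both BFC012 arrays, but OP9M2 replicate 2 was the only array above background. The difference was 1.19 ± 0.21 (limma adjusted p = 0.0605, at least 1.13-fold), and without OP9M2 replicate 1 it was called (1.40, adjusted p = 0.0288).

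Csf2 (chromosome 11, 54247270 to 54249899) and Csf3 (chromosome 11, 98700183 to 98703631) were not above background on any array, as was true of 32.4% of all genes. Csf2 (1427429_at) read 5.50 and 5.23 in OP9M2 and 5.47 and 5.26 in BFC012, a difference of 0.0021 ± 0.17 (95% interval -0.45 to 0.45). Csf3 (1419427_at) read 5.92 and 5.79 against 5.86 and 5.97, a difference of -0.06 ± 0.14 (95% interval -0.43 to 0.31). The arrays of the lines overlapped for both genes, and at this signal a difference in the transcript could not be detected.

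**Figure D2:**
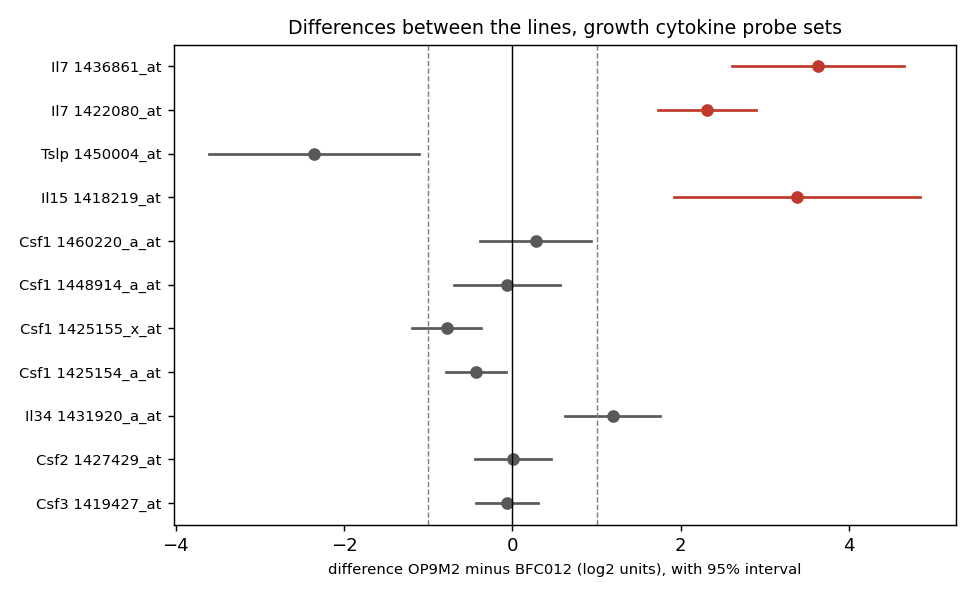
Difference OP9M2 minus BFC012 in log2 units (horizontal axis) for the 11 growth cytokine probe sets (rows); points are differences, bars their unadjusted 95% intervals from limma with 2 arrays in each line, red marks called probe sets and dashed lines mark 1 log2 unit. The 2 Il7 probe sets and Il15 lie at 2.31 to 3.63, Tslp at -2.35, and the Csf1, Csf2 and Csf3 probe sets within 1 log2 unit of 0.

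Upstream sequence is shown for Csf1 and Csf2, the only 2 of the 7 members that the RefSeq promoter table (GRCm38.p6) held. Each run is the 250 bases before the annotated start, 5′ to 3′ on the gene's strand, at chr3:107760470-107760719 (minus strand) for Csf1 and chr11:54249900-54250149 (minus strand) for Csf2. Capitals mark matches, on either strand, to the NF-kappaB site of the kappa light chain enhancer, which is the first run of capitals in Csf1, and to the GC box GGGCGG.
Csf1: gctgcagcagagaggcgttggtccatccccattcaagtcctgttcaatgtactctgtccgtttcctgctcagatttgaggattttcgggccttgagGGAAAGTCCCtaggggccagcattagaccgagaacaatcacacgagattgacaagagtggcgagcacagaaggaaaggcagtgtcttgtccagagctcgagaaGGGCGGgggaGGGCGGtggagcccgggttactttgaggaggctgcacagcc
Csf2: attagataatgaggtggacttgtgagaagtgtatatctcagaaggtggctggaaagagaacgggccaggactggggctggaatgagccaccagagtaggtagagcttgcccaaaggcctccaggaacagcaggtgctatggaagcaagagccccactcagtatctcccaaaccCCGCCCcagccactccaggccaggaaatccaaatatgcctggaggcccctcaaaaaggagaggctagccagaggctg
The Csf1 window held the NF-kappaB letters on its minus strand, 154 to 145 bases before the start, and 2 GC boxes within 51 bases of it. The NF-kappaB letters were in 0.14% and GC boxes in 32.7% of all 32851 windows of this length. The Csf2 window held 1 GC box. Neither TATAAA nor the AP-1 letters TGACTCA, present in 12.4% and 4.46% of windows, were found in either of them. Csf1 had 10 and Csf2 had 2 CpG dinucleotides, beside a median of 6. These are matches of letters and not measured sites, and the table gives 1 start for each gene.

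Of 11 measured receptor genes of these cytokines, 1 was called higher in OP9M2, 0 were called lower and 10 were not called, and 6 were not above background on any array (median difference -0.0008). Il15ra, which presents IL-15, was the called one. It read 7.40 and 7.95 in OP9M2 and 5.74 and 5.84 in BFC012, above background on the OP9M2 arrays only (1.89 ± 0.22, limma adjusted p = 0.0234, at least 2.99-fold). Its other probe set (1422397_a_at) differed by 1.04 ± 0.27 and was not called (adjusted p = 0.132), and without BFC012 replicate 1 or 2 the first differed by 1.84 and 1.94 (adjusted p = 0.297 and 0.284). Il15, a call at the edge of the threshold, and its presenting receptor were thus called in the same direction. Of all genes 5.91% were called in either direction.

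Among the other receptors, Il7r was not above background on any array (4.25 and 4.40 against 4.27 and 4.39), while Crlf2, the second chain for TSLP, read 9.83 and 9.24 in OP9M2 and 9.82 and 9.73 in BFC012. Csf1r read 6.89 and 7.06 against 7.07 and 6.96 (-0.04 ± 0.15), just above background in both lines. Of 12 leukocyte markers 8 were not above background on any array, among them the pan-leukocyte gene Ptprc at 4.36 to 4.41, and 1, the T cell marker Cd3e, was above it on every array (6.49 to 6.80). The myeloid markers Cd68 (5.98 and 6.99 against 6.57 and 6.39) and Spi1 (6.09 and 6.32 against 6.25 and 6.19) were above background except on OP9M2 replicate 1. Lyz2, also myeloid, was above it on OP9M2 replicate 2 alone (6.24). The log2 values of all 12 markers, those below background included, summed to 60.6 to 61.8 in OP9M2 and 59.2 to 60.1 in BFC012. Sdc1, a surface proteoglycan that binds IL-34, was bright in both lines and lowest on OP9M2 replicate 2 (11.50 and 10.21 against 11.49 and 11.73). It was called lower in the absence of OP9M2 replicate 1 (-1.40, adjusted p = 0.0246). Csf2rb, the shared chain for GM-CSF, reached background on OP9M2 replicate 1 alone (6.21 and 4.69 against 4.25 and 4.25), and without OP9M2 replicate 2 it was called higher (1.96, adjusted p = 0.00581). Csf2rb has a near-identical copy, Csf2rb2, so its value is uncertain.

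Signal proteins that these receptors use were present in both lines. Of 10 JAK and STAT genes, 0 were called by limma, with 3 at an unadjusted p under 0.05, and 9 were above background on every array (median difference 0.12). Stat6 read 11.79 and 11.18 in OP9M2 against 10.35 and 10.42 in BFC012 (1.10 ± 0.24, adjusted p = 0.0949), Jak1 differed by 0.08 ± 0.13 and Stat3 by -1.05 ± 0.40. Without OP9M2 replicate 1, Stat3 was called lower (-1.61), and without OP9M2 replicate 2, Stat2 (2.38), Stat5a (1.32) and Stat6 (1.40) were called higher. Of 8 genes of the SOCS family, feedback inhibitors of this signal, Socs6 was called lower and 7 were not called (median difference 0.20). Socs6 read 7.74 and 8.33 in OP9M2 and 9.52 and 9.82 in BFC012 (-1.63 ± 0.25, adjusted p = 0.0449). Its other probe sets, at -1.10 and -0.39, were not called, nor was Socs6 after quantile normalization, in the mean of its probe sets, or without BFC012 replicate 1 or 2. The bright members Socs3 (-0.63 ± 0.62), Socs4 (0.48 ± 0.14) and Socs5 (-0.44 ± 0.16) were not called.

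**Figure D3:**
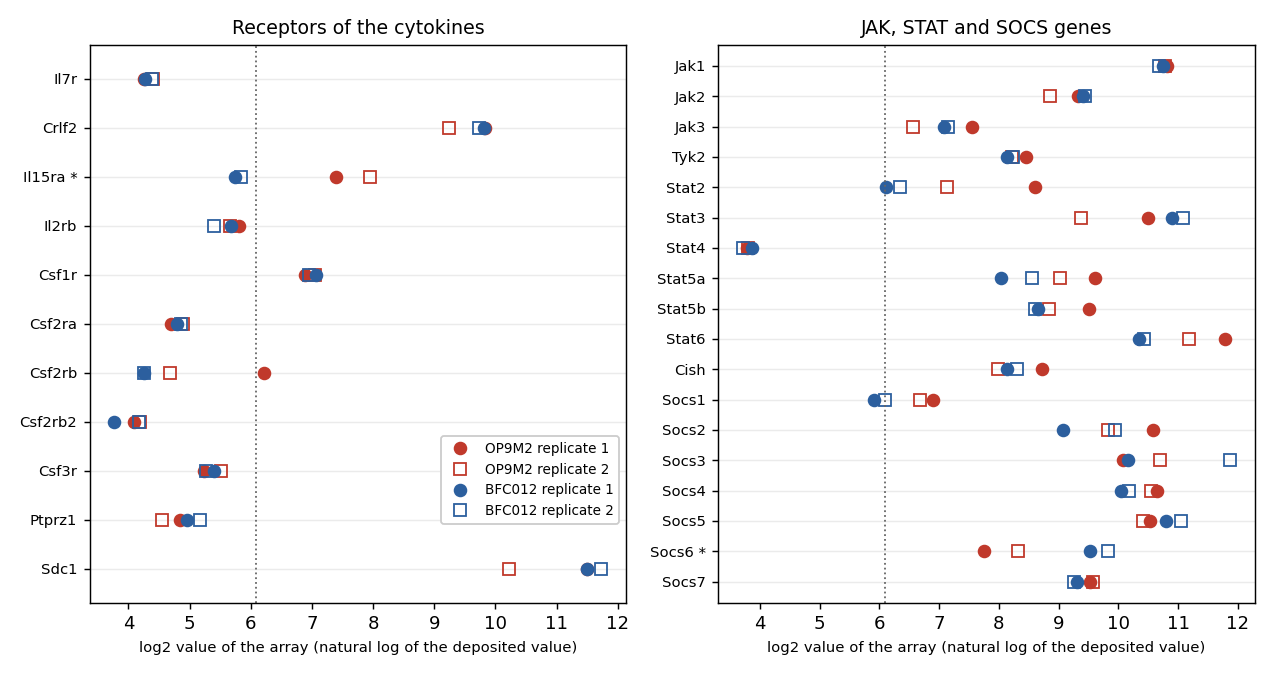
Log2 value (horizontal axes) of 11 receptor genes of the 7 cytokines (left) and of 10 JAK and STAT and 8 SOCS genes (right) on each of the 4 arrays, drawn and marked like the plot of cytokine values. Il15ra lies above background in OP9M2 alone, Il7r lies left of the line on all arrays, and most signal genes lie right of it.

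Other blood cell growth cytokines, not members, mostly gave no signal above background. Of 11 measured, Kitl, which encodes stem cell factor, was called higher in OP9M2, 10 were not called, and 8 were not above background on any array, among them Il2, Il3, Il4, Il5, Il13 and Il21. Kitl read 12.96 and 12.39 against 10.52 and 10.74 (2.04 ± 0.24, limma adjusted p = 0.0229), and all 4 of its probe sets were called. The chemokine Cxcl12 read 13.34 and 12.86 against 13.97 and 14.01 (-0.89 ± 0.20, adjusted p = 0.104), and without OP9M2 replicate 1 it was called lower (-1.13, adjusted p = 0.0278). Il9 reached 6.11 on BFC012 replicate 1 alone. Without either BFC012 array the call of Kitl was lost.

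Genes that are known to switch Csf2 and Csf3 on, or to hold their RNA down, were mostly above background in both lines, with Rel and Il17ra not above it on the OP9M2 arrays. Of 18 NF-kappaB, C/EBP and interferon regulatory factor genes, 1 was called higher in OP9M2, 1 was called lower and 16 were not called, with 17 above background on every array (median difference -0.12). Cebpd, a factor induced in inflammation, read 8.61 and 8.23 in OP9M2 and 11.24 and 11.65 in BFC012 (-3.02 ± 0.23, limma adjusted p = 0.00737, 8.13-fold lower), and its other probe set differed by -1.01 (adjusted p = 0.0502). Ikbkg, the regulatory subunit of the IkappaB kinase, read 10.38 and 10.43 against 8.88 and 9.11 (1.41 ± 0.15, adjusted p = 0.0176). Its other 5 probe sets differed by 0.55 to 0.99, under the 1 log2 unit of the call, as did the mean of all 6 (0.91). Rela, the p65 subunit of NF-kappaB, passed the p but not the fold (-0.89 ± 0.13, adjusted p = 0.0414), and Cebpb (-0.84 ± 0.17) and Nfkbia (-0.11 ± 0.18) were bright and not called. Cebpa, named after its values were seen, read 12.69 and 8.92 in OP9M2 and 6.55 and 6.59 in BFC012, with OP9M2 replicate 1 far above replicate 2 as for Il15 and the brighter Il7 probe set. It was not called with all arrays (4.23 ± 1.26, adjusted p = 0.176) and was called higher without OP9M2 replicate 1 (2.35) or replicate 2 (6.12). Rel, not called with all arrays (-1.87, adjusted p = 0.0553), was called lower without either of them (-1.46 and -2.29), and Relb without OP9M2 replicate 1 (-1.23). Neither Cebpd nor Ikbkg was called without BFC012 replicate 1 or 2.

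Of 12 receptors and adaptors through which stroma is induced to make these factors, Il17ra, the receptor chain for IL-17A, was called lower in OP9M2 and 11 were not called (median difference 0.29). Il17ra read 5.82 and 5.90 in OP9M2, not above background, and 9.25 and 9.33 in BFC012 (-3.42 ± 0.13, limma adjusted p = 0.00183, at least 9.14-fold lower), and its other probe set was called too (-2.97 ± 0.28, adjusted p = 0.0126). The adaptor Myd88 passed the p but not the fold (-0.95 ± 0.15, adjusted p = 0.0477) and was called lower without OP9M2 replicate 1 (-1.02). Tnfrsf1a (-0.19 ± 0.33) and Il17rc (0.50 ± 0.30) were bright and not called, and Il1r1, which binds IL-1, was called higher without OP9M2 replicate 2 (2.28). Without BFC012 replicate 1 or 2 Il17ra was not called. All 11 genes of AU-rich element RNA binding proteins, which control the decay of cytokine RNA, were above background on every array and 0 were called by limma, with 1 at an unadjusted p under 0.05 (median difference -0.11). The brightest, Zfp36l2, Hnrnpd and Zfp36l1, differed by 0.18, -0.35 and -0.11. Elavl1, at -0.45 in its brightest probe set, was called lower in 1 of its 6 probe sets (1452858_at, -1.30, limma adjusted p = 0.0229). Zc3h12a was called higher without OP9M2 replicate 2 (1.02).

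**Figure D4:**
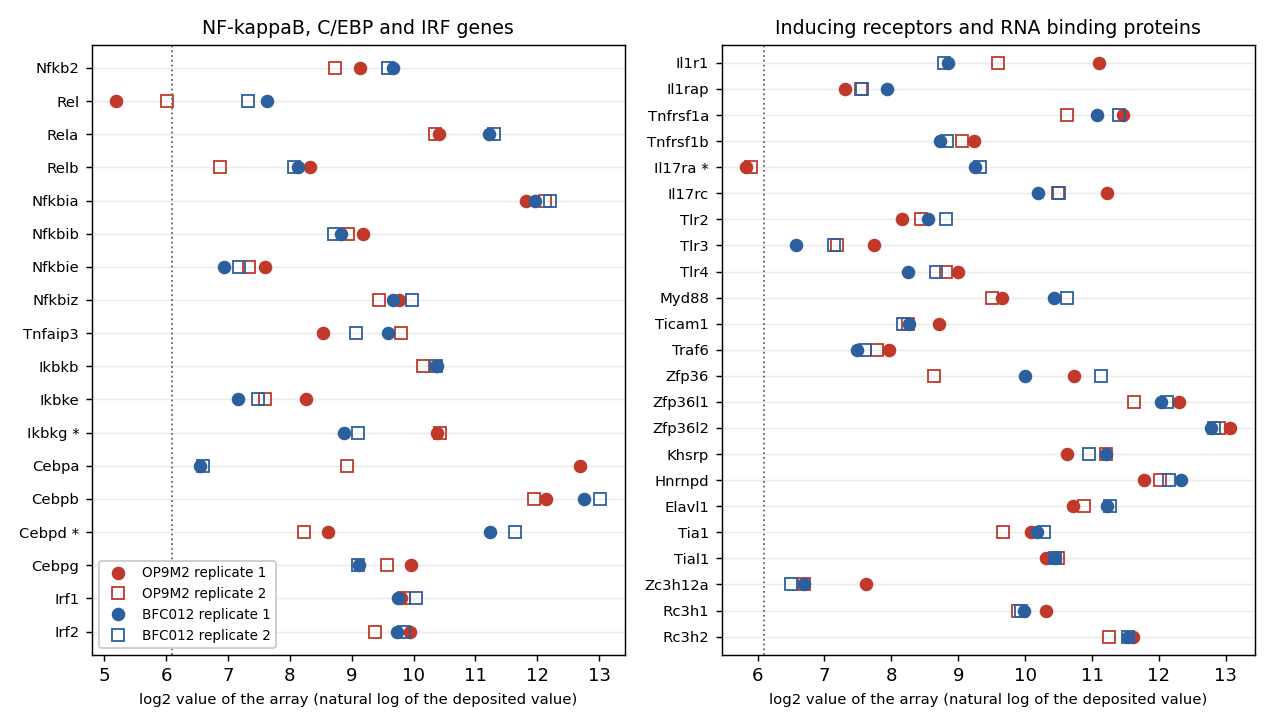
Log2 value (horizontal axes) of 18 NF-kappaB, C/EBP and interferon regulatory factor genes (left) and of 12 inducing receptors and adaptors and 11 RNA binding protein genes (right) on each of the 4 arrays, drawn and marked like the plot of cytokine values. Il17ra lies left of the line in OP9M2 and at 9.25 and 9.33 in BFC012, Cebpd lies lower in OP9M2, and Cebpa is spread from 8.92 to 12.69 within OP9M2.

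By position in the reference gene table (GRCm38.p6), the nearest measured protein-coding gene on each side was taken for each member. Of these 14 neighbours 1 was called, where 5.91% of all genes were called, and it lay beside Il7. Zc2hc1a, 18.2 kb from Il7, read 11.77 and 12.15 in OP9M2 and 9.60 and 9.79 in BFC012 (2.27, limma adjusted p = 0.00981), while Stmn2 on the other side, 895.8 kb away, differed by -0.05. The other neighbours, not called, differed by -0.72 to 1.61. They were Gypc and Wdr36 for Tslp, Inpp4b and Zfp330 for Il15, Ahcyl1 and Eps8l3 for Csf1, Mtss2 and Sf3b3 for Il34, P4ha2 and Il3 for Csf2, and Psmd3 and Med24 for Csf3. Il3, 15.2 kb from Csf2, was like it not above background on any array (3.72 and 4.15 against 3.93 and 3.60). The call of Zc2hc1a, as of all genes, was lost without BFC012 replicate 1 or 2.

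The genes whose centred values over the 4 arrays lay nearest to those of the brighter Il7 probe set were the transcription factor Ebf3 (root mean square distance 0.094 log2 units), the glutathione transferase family gene Mgst3 (0.106) and the protocadherin Pcdh7 (0.115). Ebf3 differed by 3.64 and, like Il7, was above background on the OP9M2 arrays alone. For Il15 they were Dhtkd1 (0.052), Prrg1 (0.060) and Sgce (0.103). Dhtkd1 differed by 3.46, with OP9M2 replicate 1 (8.17) above replicate 2 (6.63) as for Il15. With 4 arrays in 2 groups such likeness is a description only.

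The labelled identity was checked against mesenchymal markers. Of 9, 6 were above background on every array, among them Vim, Col1a1, Col3a1, Pdgfra and Pdgfrb, while Thy1 and Lepr, a receptor of marrow stroma that makes Il7, were not above background on any array. Col1a2 was at background in BFC012 (6.18 and 6.07) and at 14.25 and 14.14 in OP9M2. Of 7 endothelial markers 6 were not above background on any array.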

How the data were processed

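Total RNA of the irradiated lines was hybridized to 4 arrays, 2 per line. The authors deposited 1 intensity per probe set and array, for which they named RMA and the affy package. Their settings and versions were not stated in the sources read. The deposited intensities reached 2958710, above the scanner maximum of 65535, and their natural logarithms lay between 2.06 and 14.9, so the natural logarithm was read as the RMA log2 value. The base was not stated. After 64 array controls were left out, 45037 probe sets were fitted with limma 3.58.1 in R 4.3.3 (2 residual and 2.50 prior degrees of freedom). A gene was represented by its brightest probe set naming it alone, with symbols from the array annotation. The number of arrays limits precision, and nothing beyond the label says how separate the replicate cultures were. Il2rg, Nfkb1, Chuk, Flt3l, Thpo, Epo and Il1rl1 were listed but not analysed here. Members and lists were chosen with earlier results of these data known. Named were all members, called list genes, the 3 brightest genes of a list, neighbours and nearest profiles. All else was named after its values were seen. The fit was tested on simulated data in which both lines had the same spread, unlike these arrays. There it made no false call but missed many of the changes put in. This does not show how many false calls these data hold. A gene not called is likewise not shown to be alike in both lines.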

Additional observations from a re-analysis of the deposited data

How the results depend on the processing

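The differences of Il7, Il15, Tslp and Il34 kept their sign in every alternative run. Members with differences near 0 did not. Csf1 (1460220_a_at) was -0.25 as the mean of its probe sets and Csf1 (1448914_a_at) ranged from -0.36 to 0.23 when 1 array was left out, the highest without BFC012 replicate 1. Csf2 was -0.040 with quantile normalization and -0.012 with median centring, and ranged from -0.13 (without OP9M2 replicate 1) to 0.14 with 1 array left out (-0.098 without BFC012 replicate 2), and Csf3 from -0.13 to 0.0019 (without OP9M2 replicate 2). Leaving out 1 array moved the probe sets called higher to between 0 and 2181 and those called lower to between 0 and 2256, and the member probe sets called higher to between 0 and 4. The list genes called then ranged from 0 to 2 for receptors, 0 to 3 for JAK and STAT, 0 to 1 for SOCS, 0 to 2 for other cytokines, 0 to 5 for NF-kappaB and C/EBP, 0 to 2 for inducing receptors and 0 to 1 for AU-rich element binding proteins. Every one of these counts was 0 without either BFC012 array, and each highest count came without an OP9M2 array. In those fits the residual spread was that of the line with 2 arrays. Why the OP9M2 arrays lay further apart was not tested.

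The labels do not say that equal replicate numbers share a batch. With the number as a replicate block, 245 probe sets were called higher and 462 lower, of the members 0 (Il7 adjusted p = 0.0811, Il15 0.123), and 0 genes among receptors, SOCS genes, other cytokines, and NF-kappaB and C/EBP genes. Replicate differences of the lines correlated at -0.103 over probe sets, so the crossed pairing was added after seeing the data. It called 585 higher and 792 lower, 2 member probe sets, with Il15 lost, and 0 receptor and 0 SOCS genes. SOCS genes called were also 0 with quantile normalization and 0 with the mean of probe sets by gene, and inducing receptors called were 2 with log2 of the deposited values, on which scale every difference is 1.44 times larger. Il34 was called with an intensity trend (adjusted p = 0.0468) and as a gene mean (adjusted p = 0.0449).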
